A study of Homo sapiens with 12 samples.

Results

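The module holds 32 genes of glycolysis and of glucose and lactate transport: 3 glucose transporters, the enzymes that carry glucose to pyruvate and on to lactate, the PFKFB and pyruvate dehydrogenase kinase regulators, and 2 lactate transporters. Members were chosen by gene symbol, with earlier results of these data known. All 32 were found once each among the 62914 entries of the expression tables. All 32 were also abundant enough to be tested, within a fit of 16628 genes. Poly(A)-selected RNA of THP-1, a human monocytic leukemia cell line, was sequenced from 12 libraries, 3 in each of 4 groups. One group received 3'-3'-cGAMP at 1 μg/mL for 8 hours, a bacterial cyclic dinucleotide that activates the STING sensor and served as the positive control for innate antiviral signaling. The others formed a dose series of chlorquinaldol, a chlorinated hydroxyquinoline antimicrobial: 0 μM (the untreated control cells), 20 μM and 50 μM, the treated cells for 8 hours. No allele or transgene is named in the labels, and they give neither a vehicle nor whether replicates were separate cultures, so p-values measure only the spread between these libraries, which may be technical.

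Glycolysis splits glucose into pyruvate in the cytosol and yields ATP without oxygen. Glucose enters through SLC2A carriers, is trapped by hexokinase and committed by phosphofructokinase, whose activator fructose 2,6-bisphosphate is made and removed by PFKFB enzymes. Pyruvate is then either reduced to lactate by lactate dehydrogenase and exported through SLC16A carriers, or oxidized in mitochondria by pyruvate dehydrogenase, which the PDK kinases switch off. Monocytes and macrophages are known to raise glycolysis on activation, and hypoxia-inducible factors and MYC are known activators of many of these genes.

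Library totals lay between 17620929 and 19222607 estimated counts, so depth was alike in all groups. All 10 monocytic markers were detected, with MPO, a granule enzyme of early myeloid cells, close to 0 (6 to 55 counts). The markers' summed level was 1250 to 1340 FPKM in cGAMP libraries, against 1130 to 1160 FPKM in untreated libraries. It was 818 to 913 FPKM at 20 μM and 854 to 935 FPKM at 50 μM. The markers went both ways with dose: LYZ averaged 400, 203 and 162 FPKM and CEBPA 138, 74.2 and 47.9 FPKM at 0, 20 and 50 μM, while ITGAM averaged 16.8, 55 and 58.2 FPKM, CSF1R 35.7, 64.6 and 84.1 FPKM and CD14 17.3, 37.3 and 29 FPKM. Sums for T cell, epithelial, fibroblast and erythroid markers stayed under 1 FPKM in every library. MS4A1, COL1A2 and HBB had no count. The part of these marker shifts in the results was not tested, and in bulk RNA a change in the cells present and a change in RNA per cell cannot be told apart.

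Chlorquinaldol raised most of the module. At 20 μM, 21 of the 32 members rose and 5 fell, where 27.1% of all tested genes rose and 28% fell. At 50 μM, 24 members rose, against 32.2% of all tested genes, and 5 fell, against 34.7%. The 24 that rose are 75.0% of the members and the 5 that fell are 15.6%. The median member changed by log2 0.59 at 20 μM and 0.78 at 50 μM, while the median of all tested genes was near 0 at 20 μM and -0.03 at 50 μM. Changes of at least 2-fold upward were called for 7 members at 20 μM (8.77% of all genes) and for 14 members at 50 μM (14.4% of all genes). The libraries of the 50 μM and 0 μM groups did not overlap for 29 of the 32 members, as for 70.6% of all genes. Both doses were compared with the same 3 untreated libraries. The number that fell at 20 μM was 3 without 20 μM replicate 2 or 3, 50 μM replicate 2, cGAMP replicate 2 or untreated replicate 1. A call means an adjusted p below 0.05 in edgeR's quasi-likelihood test over all tested genes, with levels as CPM, each library's counts scaled to a common total after TMM adjustment.

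**Figure D1:**
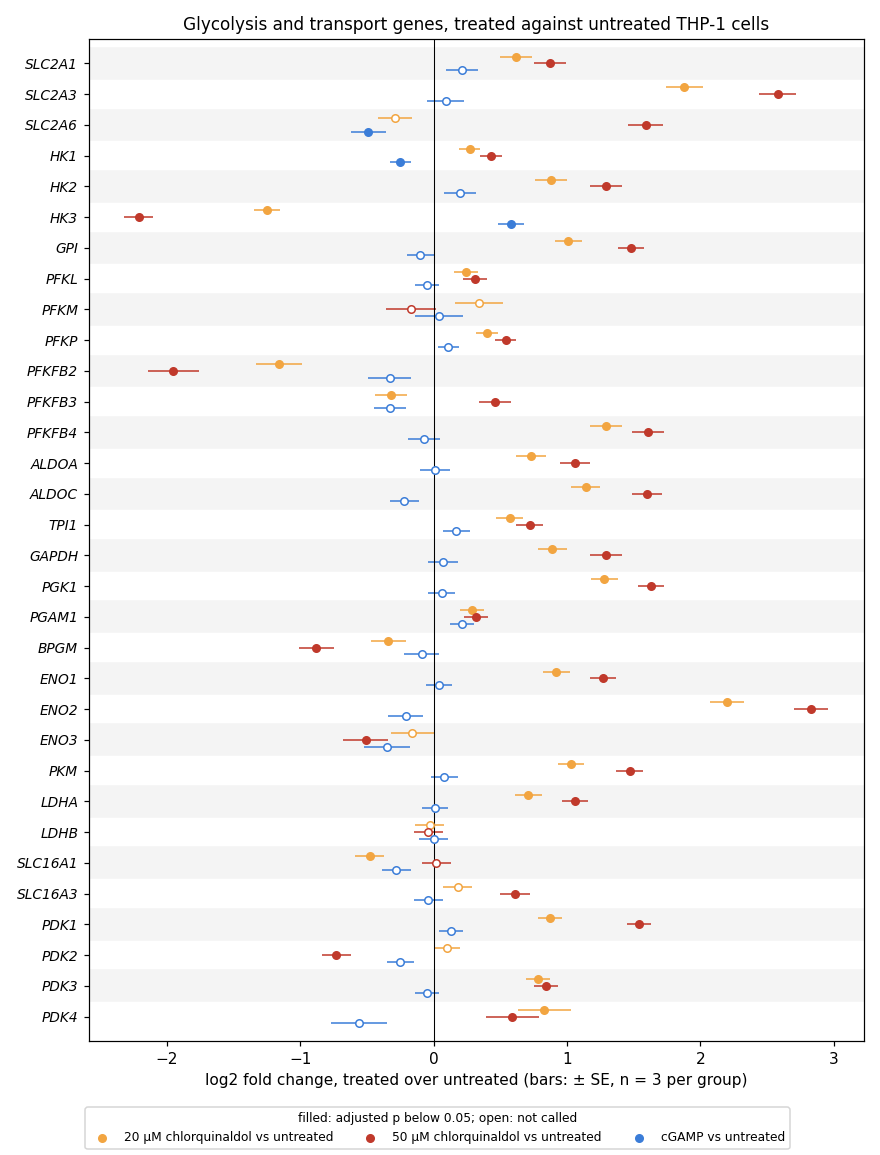
Log2 fold change of each of the 32 genes, in pathway order, for 20 μM chlorquinaldol, 50 μM chlorquinaldol and cGAMP, each against untreated cells. Points are fitted values with ± SE bars (n = 3 per group), filled where the adjusted p was below 0.05. ENO2 and SLC2A3 lie farthest right, HK3 and PFKFB2 farthest left, and 29 of 32 points for 50 μM are filled.

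The 32 genes took up a larger share of each library as the dose went up. Their counts made 1.63%, 1.71% and 1.79% of all annotated counts at 0 μM, 3.15%, 3.04% and 2.72% at 20 μM, and 3.61%, 3.54% and 3.21% at 50 μM. The group means were 1.71% ± 0.08, 2.97% ± 0.223 and 3.45% ± 0.214 (SD, n = 3 each), and no untreated library reached a treated one. Replicate 3 was the lowest of its group in both chlorquinaldol groups and had the lowest level for 20 of 32 members at 20 μM and 21 of 32 at 50 μM. Among untreated and cGAMP libraries replicate 1 had the lowest level, for 21 of 32 and 22 of 32 members, and replicate 3 the highest, for 22 in each. In the cGAMP libraries the share was 1.6%, 1.72% and 1.79% (mean 1.7% ± 0.0961), overlapping the untreated libraries.

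**Figure D2:**
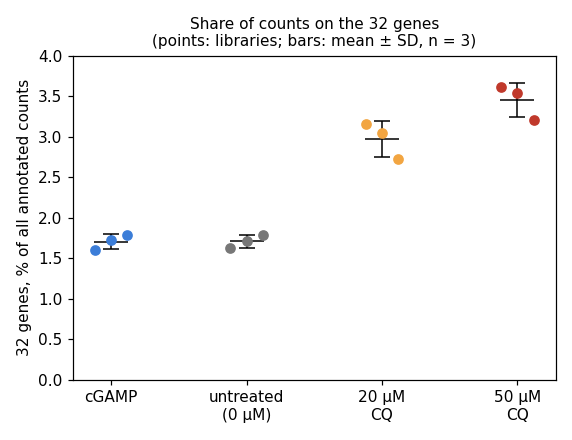
Share of all annotated counts that fell on the 32 genes, as a percentage, for each library (points) with the group mean ± SD (n = 3). The cGAMP and untreated groups average 1.7% and 1.71%, and the 20 μM and 50 μM groups 2.97% and 3.45%.

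Upstream sequence is shown for 5 members picked as examples with their changes known: ENO2 and PGK1, which rose, LDHA and LDHB, an enzyme pair that separated, and HK3, which fell. Each sequence is the 250 bases before the RefSeq start site on GRCh38.p14, written in the direction of the gene. Capitals mark ACGTG or its reverse complement CACGT, letters that are part of the core bound by hypoxia-inducible factors and, within CACGTG, of the E-box bound by MYC. The stretches lie at chr12:6914330-6914579 on the plus strand for ENO2, chrX:78103998-78104247 on the plus strand for PGK1, chr11:18394313-18394562 on the plus strand for LDHA, chr12:21657843-21658092 on the minus strand for LDHB and chr5:176899347-176899596 on the minus strand for HK3. In GENCODE release 29, whose positions are used for the genes, the HK3 stretch lies outside its gene, while the others lie wholly or partly inside their genes' outer limits because that release lists starts farther upstream.
ENO2: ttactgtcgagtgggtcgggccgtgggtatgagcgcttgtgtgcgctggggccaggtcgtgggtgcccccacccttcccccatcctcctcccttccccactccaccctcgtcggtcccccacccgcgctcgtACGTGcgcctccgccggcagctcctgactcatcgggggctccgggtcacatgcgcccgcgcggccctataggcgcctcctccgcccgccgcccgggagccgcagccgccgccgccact
PGK1: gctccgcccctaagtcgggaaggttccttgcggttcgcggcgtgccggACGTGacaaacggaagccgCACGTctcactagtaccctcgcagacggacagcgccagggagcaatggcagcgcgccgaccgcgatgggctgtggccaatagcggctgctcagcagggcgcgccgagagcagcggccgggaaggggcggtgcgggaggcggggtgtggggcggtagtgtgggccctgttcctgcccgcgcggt
LDHA: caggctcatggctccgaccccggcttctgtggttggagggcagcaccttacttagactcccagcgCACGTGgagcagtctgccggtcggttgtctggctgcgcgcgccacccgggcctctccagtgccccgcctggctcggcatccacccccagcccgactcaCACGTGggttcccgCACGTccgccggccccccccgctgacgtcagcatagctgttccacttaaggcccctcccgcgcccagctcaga
LDHB: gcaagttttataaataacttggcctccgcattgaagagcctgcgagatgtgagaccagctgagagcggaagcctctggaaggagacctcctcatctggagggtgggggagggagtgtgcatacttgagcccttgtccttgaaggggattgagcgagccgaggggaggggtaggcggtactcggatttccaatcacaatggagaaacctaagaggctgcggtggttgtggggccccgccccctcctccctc
HK3: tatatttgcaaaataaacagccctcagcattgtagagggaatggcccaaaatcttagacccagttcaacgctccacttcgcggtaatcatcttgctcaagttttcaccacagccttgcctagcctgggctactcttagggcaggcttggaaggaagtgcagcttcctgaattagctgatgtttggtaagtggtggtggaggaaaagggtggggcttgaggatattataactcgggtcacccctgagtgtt

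ENO2 held 1 marked stretch, its first base at position -118 from the start site, and PGK1 held 2, at -202 and -183. LDHA held 3, of which 2 read CACGTG. LDHB and HK3 held none within this window. ACGTG was found among members of both directions: ENO1, PKM, PFKFB4 and SLC2A1 rose and had no window with ACGTG, while BPGM and PDK2 fell at 50 μM and had 1 each. GCGTG, which differs in the first base and was also searched on either strand, is not marked above. It occurred in 1 window each of ENO1, PFKFB4 and PDK2 and in none of PKM, SLC2A1 and BPGM. On either strand, ACGTG occurred in 18.5% of the 35116 RefSeq promoter windows of this length, and in 34.5% of the 58 windows of members (20 windows, of 17 among the 29 members with a sequence). The longer CACGTG, which always contains ACGTG, occurred in 6.34% of all windows. SLC2A3, PFKFB2 and SLC16A1 had no entry. These are counts of letters in a window and no measurement of binding.

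All 3 glucose transporters rose at 50 μM, by differing amounts and with differing dose patterns. SLC2A3 (ENSG00000059804, chr12:7919230-7936275, minus strand), the high-affinity carrier GLUT3, had 78.3, 80.5 and 100 CPM at 0 μM, 350, 322 and 280 CPM at 20 μM and 597, 446 and 504 CPM at 50 μM. The 3 groups did not overlap, and each dose stood above the one below it. Its level was 3.67 times the untreated one at 20 μM (log2 1.88 ± 0.14 SE, adjusted p = 7.62e-09) and 5.97 times at 50 μM (log2 2.58 ± 0.14 SE, adjusted p = 5.61e-11). SLC2A3 shares most of its sequence with SLC2A14, whose own level changed by log2 1.53 and 1.82 at the 2 doses, so how reads were divided between the pair is uncertain. SLC2A6 (ENSG00000160326, chr9:133471095-133479137, minus strand), a lysosome-associated carrier of the family, had 17.9, 13.8 and 14.7 CPM at 0 μM, 13.1, 12.6 and 12.2 CPM at 20 μM and 56.8, 44.3 and 39.0 CPM at 50 μM. The 20 μM libraries lay just under the untreated ones and the 50 μM libraries far above both. It did not pass the test at 20 μM (log2 -0.29, adjusted p = 0.0763) and rose at 50 μM (log2 1.59 ± 0.13 SE, adjusted p = 5.21e-09). From 20 to 50 μM it rose 3.68-fold (log2 1.88 ± 0.13 SE, adjusted p = 1.53e-08), the only member to gain 2-fold or more over that step. SLC2A1, the widespread carrier GLUT1 and the most abundant of the 3 per length, had 534, 626 and 659 CPM at 0 μM, 974, 933 and 882 CPM at 20 μM and 1320, 1030 and 975 CPM at 50 μM. It rose by log2 0.62 ± 0.12 SE at 20 μM (adjusted p = 0.00044) and 0.87 ± 0.12 at 50 μM (adjusted p = 8.53e-06), and the step between the doses did not pass (log2 0.25, 95% interval -0.01 to 0.51).

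The 3 hexokinase isozymes, which phosphorylate glucose on entry, moved in opposite directions: HK1 and HK2 rose and HK3 fell. HK2, the inducible isozyme bound to mitochondria, had 432, 432 and 577 CPM at 0 μM, 912, 850 and 890 CPM at 20 μM and 1330, 1060 and 1120 CPM at 50 μM. Untreated libraries were lowest and 50 μM libraries highest, with no overlap. HK2 rose 1.84-fold at 20 μM (log2 0.88 ± 0.12 SE, adjusted p = 7.1e-06) and 2.44-fold at 50 μM (log2 1.29 ± 0.12 SE, adjusted p = 3.88e-08). HK3 (ENSG00000160883, chr5:176880869-176899332, minus strand), the isozyme typical of myeloid cells, had 38.4, 40.5 and 43.6 CPM at 0 μM, 16.8, 16.5 and 18.2 CPM at 20 μM and 7.13, 10.2 and 9.03 CPM at 50 μM. Each dose lay below the one before it, again without overlap. HK3 fell by 1.25 ± 0.10 on the log2 scale at 20 μM (adjusted p = 3.61e-08) and by 2.21 ± 0.11 at 50 μM (adjusted p = 2.52e-11), which left it 4.63 times lower than in untreated cells. HK1, the housekeeping isozyme, had 118, 126 and 116 CPM at 0 μM, 149, 145 and 141 CPM at 20 μM and 175, 160 and 151 CPM at 50 μM. Its treated libraries all exceeded the untreated ones, by small amounts (log2 0.27 ± 0.08 SE at 20 μM, adjusted p = 0.0108, and 0.43 ± 0.08 at 50 μM, adjusted p = 0.000194). HK3 overlaps UNC5A on the other strand, whose counts came to 3.48% of those of HK3. GPI, which converts glucose 6-phosphate to fructose 6-phosphate, had 425, 453 and 462 CPM at 0 μM, 967, 942 and 792 CPM at 20 μM and 1320, 1320 and 1090 CPM at 50 μM. The doses did not overlap, and the rise was 2.02-fold at 20 μM (log2 1.01 ± 0.10 SE, adjusted p = 3e-07) and 2.78-fold at 50 μM (log2 1.48 ± 0.10 SE, adjusted p = 1.17e-09).

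The catalytic subunits of phosphofructokinase changed little, whereas their PFKFB regulators differed from each other in direction. PFKL and PFKP, the liver and platelet subunits, rose at both doses, by log2 0.24 and 0.40 at 20 μM and 0.31 and 0.54 at 50 μM (adjusted p between 1.69e-05 and 0.0303). PFKL at 20 μM missed the threshold without 20 μM replicate 1 or untreated replicate 1 or 3 (adjusted p up to 0.106). PFKM, the muscle subunit, stayed at 2.68 to 4.85 CPM in the dose series and did not pass at 20 μM (log2 0.34, adjusted p = 0.114) or at 50 μM (log2 -0.17, adjusted p = 0.441). PFKFB4, bifunctional like the other PFKFB enzymes, with a kinase and a phosphatase domain, had 110, 122 and 130 CPM at 0 μM, 341, 281 and 262 CPM at 20 μM and 403, 377 and 321 CPM at 50 μM. All treated libraries exceeded all untreated ones, while the 2 treated groups overlapped. PFKFB4 rose 2.45-fold (log2 1.29 ± 0.12 SE, adjusted p = 7.82e-08) and 3.05-fold (log2 1.61 ± 0.12 SE, adjusted p = 1.82e-09). PFKFB2, the isoform best known from heart, had 6.98, 6.61 and 7.61 CPM at 0 μM, 3.24, 2.79 and 3.4 CPM at 20 μM and 1.91, 1.97 and 1.59 CPM at 50 μM. It fell at each dose, without overlap, by 1.16 ± 0.17 on the log2 scale at 20 μM (adjusted p = 1.93e-05) and by 1.95 ± 0.19 at 50 μM (adjusted p = 6.2e-08). PFKFB3, the isoform with the strongest kinase activity over phosphatase, had 63.5, 58.6 and 61.3 CPM at 0 μM, 54.1, 45.9 and 46.5 CPM at 20 μM and 103, 76.0 and 73.0 CPM at 50 μM. The middle dose was the lowest group and the high dose the highest: PFKFB3 fell at 20 μM (log2 -0.32 ± 0.12 SE, adjusted p = 0.027), rose at 50 μM (log2 0.46 ± 0.12, adjusted p = 0.00211) and rose over the step between the doses (log2 0.78 ± 0.12, adjusted p = 5.64e-05). The fall at 20 μM missed the threshold on leaving out 20 μM replicate 2 or 3, 50 μM replicate 2, cGAMP replicate 2 or untreated replicate 1 or 3 (adjusted p up to 0.158), and the rise at 50 μM missed it in limma fits of the FPKM values (adjusted p up to 0.258). PFKM and PFKFB2 overlap SENP1 and YOD1 on the other strand, whose counts were 387% and 289% of theirs, and the strand used in counting is not given in the sources used here.

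**Figure D3:**
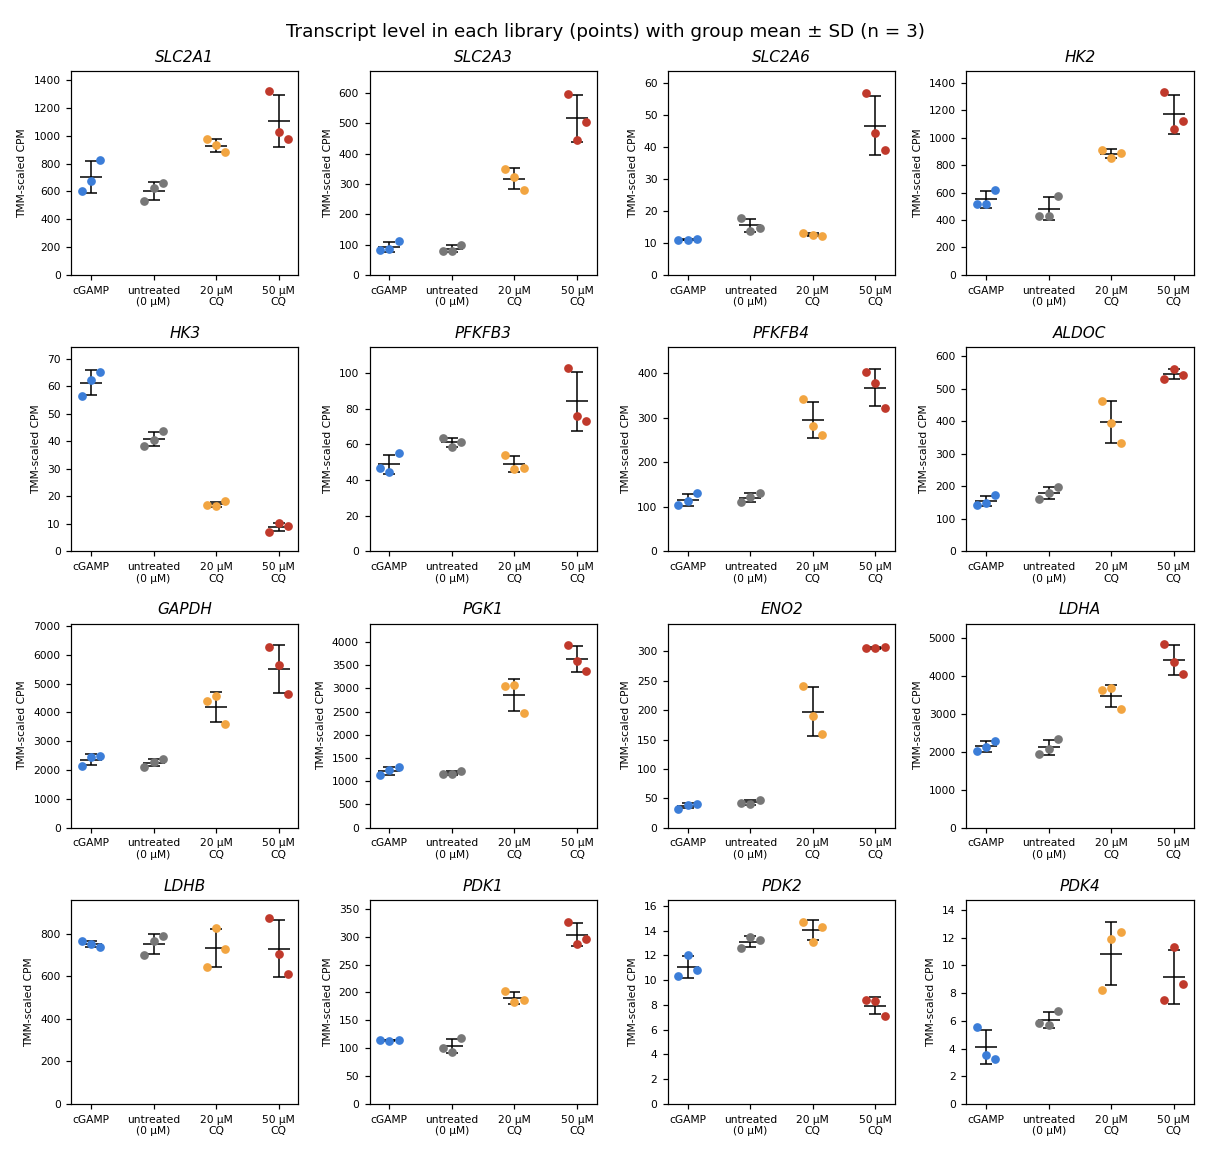
Transcript level in each library for 16 members, in CPM after TMM scaling on a linear axis from 0, with the group mean ± SD (n = 3). Points for SLC2A3, PGK1, ENO2 and PDK1 step up with dose, those for HK3 step down, LDHB stays level, and the cGAMP points lie near the untreated ones for most genes shown.

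Of the 11 genes from aldolase to pyruvate kinase, 9 rose at both doses and BPGM fell at both, while ENO3 fell at 50 μM. Over all tested genes 27.1% rose and 28% fell at 20 μM, and 32.2% rose and 34.7% fell at 50 μM. ENO2 (ENSG00000111674, chr12:6913745-6923698, plus strand), the neuronal enolase isozyme that dehydrates 2-phosphoglycerate, moved most of all members. Its level was 41.9, 39.8 and 47.4 CPM at 0 μM, 242, 190 and 160 CPM at 20 μM and 306, 305 and 308 CPM at 50 μM. The groups did not overlap, and the rise was 4.59-fold at 20 μM (log2 2.20 ± 0.13 SE, adjusted p = 5.3e-10) and 7.13-fold at 50 μM (log2 2.83 ± 0.13 SE, adjusted p = 6.84e-12). ENO1, the general isozyme of the same step, had 2030, 2150 and 2240 CPM at 0 μM, 4260, 4320 and 3540 CPM at 20 μM and 5440, 5270 and 4790 CPM at 50 μM. Its rise was smaller than that of ENO2, at 1.89-fold (log2 0.92 ± 0.10 SE, adjusted p = 5.3e-07) and 2.41-fold (log2 1.27 ± 0.10 SE, adjusted p = 4.09e-09). ENO3, the muscle isozyme, stayed at 3.31 to 5.43 CPM and fell at 50 μM by 0.51 ± 0.17 on the log2 scale (adjusted p = 0.0139). That call was lost in DESeq2 and without 50 μM replicate 1 or 3 or untreated replicate 2 (adjusted p up to 0.0847 over all alternatives), and ENO3 overlaps PFN1, whose counts were 13300% of its own.

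PGK1, the first ATP-yielding enzyme of the pathway, had 1150, 1150 and 1220 CPM at 0 μM, 3040, 3070 and 2460 CPM at 20 μM and 3930, 3590 and 3370 CPM at 50 μM. All 50 μM libraries exceeded all 20 μM libraries and those exceeded all untreated ones, a rise of 2.43-fold (log2 1.28 ± 0.10 SE, adjusted p = 1.27e-08) and 3.09-fold (log2 1.63 ± 0.10 SE, adjusted p = 1.97e-10). PKM, the pyruvate kinase gene of most tissues, had 1410, 1500 and 1510 CPM at 0 μM, 3320, 3140 and 2560 CPM at 20 μM and 4290, 4290 and 3700 CPM at 50 μM. It rose 2.04-fold (log2 1.03 ± 0.10 SE, adjusted p = 2.77e-07) and 2.78-fold (log2 1.47 ± 0.10 SE, adjusted p = 1.39e-09), and gene-level values do not separate its M1 and M2 splice forms. GAPDH, the dehydrogenase often used as a reference transcript in RT-qPCR, had 2120, 2290 and 2370 CPM at 0 μM, 4390, 4570 and 3590 CPM at 20 μM and 6280, 5630 and 4620 CPM at 50 μM. The groups did not overlap: GAPDH rose 1.85-fold at 20 μM (log2 0.89 ± 0.11 SE, adjusted p = 4.79e-06) and 2.44-fold at 50 μM (log2 1.29 ± 0.12 SE, adjusted p = 2.89e-08). It alone made 0.234% ± 0.00874 of all counts at 0 μM, 0.43% ± 0.0425 at 20 μM and 0.516% ± 0.0633 at 50 μM (SD, n = 3 each).

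ALDOA, the aldolase of muscle and most other tissues, had 1940, 2160 and 2280 CPM at 0 μM, 3830, 3660 and 3080 CPM at 20 μM and 4580, 4640 and 4040 CPM at 50 μM. ALDOC, the brain aldolase, had 161, 180 and 198 CPM at 0 μM, 463, 395 and 335 CPM at 20 μM and 531, 561 and 542 CPM at 50 μM. Both separated by dose without overlap, with ALDOA up by log2 0.73 ± 0.11 SE and 1.06 ± 0.11 (adjusted p = 1.72e-05 and 1.18e-07) and ALDOC up by 1.14 ± 0.11 and 1.60 ± 0.11 (adjusted p = 1.83e-07 and 1.16e-09) at 20 and 50 μM. The step between the doses for ALDOA (log2 0.33, adjusted p = 0.0208) was lost without 20 μM replicate 3 or 50 μM replicate 2 (adjusted p up to 0.273 over all alternatives). Another protein-coding entry on the same strand, with 6.58% of its counts, overlaps ALDOA. TPI1, the triose phosphate isomerase, rose by log2 0.57 and 0.72, and PGAM1, a phosphoglycerate mutase, by log2 0.29 and 0.32 (adjusted p between 9.12e-06 and 0.012). The PGAM1 rise at 20 μM missed the threshold without untreated replicate 1 (adjusted p = 0.0585). BPGM, which diverts an intermediate to 2,3-bisphosphoglycerate, ran the other way, at 8.4 to 10 CPM untreated, 6.57 to 7.63 CPM at 20 μM and 4.17 to 5.39 CPM at 50 μM. Its fall at 50 μM (log2 -0.88 ± 0.13 SE, adjusted p = 1.64e-05) was called in every alternative. Its fall at 20 μM (log2 -0.34, adjusted p = 0.0312) was lost in 13 of 22 alternatives, among them leaving out any 20 μM or 50 μM replicate, cGAMP replicate 2 or untreated replicate 1. GAPDH, PGK1, LDHA and other glycolytic genes have processed pseudogenes elsewhere in the genome with which reads may be shared.

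The 2 lactate dehydrogenase genes separated, since LDHA rose and LDHB did not pass the test in any comparison. LDHA (ENSG00000134333, chr11:18394388-18408425, plus strand), the subunit that favours reduction of pyruvate, had 1960, 2080 and 2350 CPM at 0 μM, 3630, 3680 and 3140 CPM at 20 μM and 4850, 4380 and 4070 CPM at 50 μM. Its groups did not overlap, and it rose 1.64-fold (log2 0.71 ± 0.10 SE, adjusted p = 9.79e-06) and 2.08-fold (log2 1.06 ± 0.10 SE, adjusted p = 4.34e-08). LDHB (ENSG00000111716, chr12:21635342-21757857, minus strand), the heart-type subunit, had 699, 764 and 788 CPM at 0 μM, 646, 827 and 727 CPM at 20 μM and 874, 704 and 612 CPM at 50 μM. All 3 groups overlapped. Its difference from untreated cells was log2 -0.03 at 20 μM (95% interval -0.27 to 0.21, adjusted p = 0.825) and log2 -0.04 at 50 μM (95% interval -0.28 to 0.20, adjusted p = 0.77). SLC16A3, the lactate exporter MCT4, was at 254 to 282 CPM untreated, 293 to 324 CPM at 20 μM and 332 to 463 CPM at 50 μM. It did not pass at 20 μM (log2 0.18, adjusted p = 0.167) and rose at 50 μM (log2 0.61 ± 0.11 SE, adjusted p = 8.92e-05), and it overlaps CSNK1D, whose counts were 31.5% of its own. SLC16A1, the bidirectional carrier MCT1, had 40.0, 33.7 and 31.8 CPM at 0 μM, 23.6, 27.1 and 25.1 CPM at 20 μM and 31.4, 35.7 and 39.9 CPM at 50 μM. It was lowest at 20 μM, with a fall of 0.48 ± 0.11 on the log2 scale (adjusted p = 0.00115), and rose over the step to 50 μM by log2 0.50 ± 0.11 (adjusted p = 0.00152), where it overlapped the untreated libraries (log2 0.02, 95% interval -0.20 to 0.24).

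Among the pyruvate dehydrogenase kinases, PDK1, PDK3 and PDK4 rose at both doses and PDK2 fell at the higher one. PDK1, a kinase that shuts off pyruvate dehydrogenase and a known target of hypoxia-inducible factors, had 101, 93.9 and 118 CPM at 0 μM, 203, 183 and 186 CPM at 20 μM and 327, 287 and 296 CPM at 50 μM. Its groups stood apart in dose order, and the rise was 1.83-fold at 20 μM (log2 0.87 ± 0.09 SE, adjusted p = 3.1e-07) and 2.91-fold at 50 μM (log2 1.54 ± 0.09 SE, adjusted p = 1.14e-10). PDK2, a widely expressed isozyme, had 12.6, 13.5 and 13.2 CPM at 0 μM, 14.7, 13.1 and 14.3 CPM at 20 μM and 8.41, 8.28 and 7.12 CPM at 50 μM. The 0 and 20 μM libraries overlapped (log2 0.10, adjusted p = 0.435), whereas the 50 μM libraries lay below all others, a fall of 0.73 ± 0.11 on the log2 scale (adjusted p = 1.14e-05). PDK3 rose by log2 0.78 ± 0.09 SE at 20 μM and 0.84 ± 0.09 at 50 μM (adjusted p = 9.24e-07 and 1.76e-07) and its treated groups overlapped. PDK4, an isozyme known to be induced by fasting, had 5.83, 5.69 and 6.73 CPM at 0 μM, 8.22, 11.9 and 12.4 CPM at 20 μM and 7.48, 11.3 and 8.65 CPM at 50 μM. Every treated library exceeded the untreated ones, with log2 0.83 ± 0.20 SE at 20 μM (adjusted p = 0.00158) and 0.59 ± 0.20 at 50 μM (adjusted p = 0.0144). The call at 50 μM was lost without 50 μM replicate 2 or untreated replicate 2 and in the limma fits of FPKM (adjusted p up to 0.23).

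The step between the chlorquinaldol doses was tested directly. From 20 to 50 μM, 17 members rose, where 19.1% of all genes rose, and 5 fell, where 19% fell. The median member changed by log2 0.32, against -0.02 for all genes. The members that fell over the step were HK3 (log2 -0.96), PFKM (log2 -0.51), PFKFB2 (log2 -0.79), BPGM (log2 -0.54) and PDK2 (log2 -0.83). The PFKM step was lost in 13 alternatives (adjusted p up to 0.331), among them leaving out any 20 μM replicate, 50 μM replicate 1 or 3, or cGAMP replicate 2. Apart from SLC2A6, the largest rises were in PFKFB3 (log2 0.78), SLC2A3 (log2 0.70), PDK1 (log2 0.67) and ENO2 (log2 0.63), and most enzymes of the trunk pathway rose by less, such as GAPDH (log2 0.40), LDHA (log2 0.35) and PGK1 (log2 0.35). PFKFB4 rose by log2 0.32 (adjusted p = 0.0345) with overlapping libraries, a call lost in 10 alternatives, among them leaving out 20 μM replicate 2 or 3 or 50 μM replicate 1 or 2. In limma fits of the FPKM values only 6 to 10 members rose over this step.

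The make-up of most isozyme families shifted with dose. Shares of a family's summed FPKM, a unit per transcript length, were compared between libraries without a test, since an exact permutation test of 3 against 3 cannot give a p below 0.1. LDHA made 68.7% ± 2.14 of lactate dehydrogenase transcripts at 0 μM, 77.8% ± 2.09 at 20 μM and 82.0% ± 1.56 at 50 μM (SD, n = 3 each). HK2 made 62.6% ± 3.04, 76.2% ± 0.646 and 80.5% ± 1.24 of hexokinase transcripts at the same doses, and HK3 made 11.8% ± 0.682, 3.5% ± 0.565 and 1.5% ± 0.378. These shifts left no overlap between untreated and treated libraries. SLC2A3 made 4.51% ± 0.264, 9.9% ± 0.697 and 13.8% ± 0.739 of the transcripts of the 3 glucose transporters. PFKFB4 was already the main PFKFB form at 73.3% ± 1.74 and reached 89.1% ± 0.754 at 20 μM and 86.2% ± 0.924 at 50 μM. ENO2 made only 1.7% ± 0.212, 4.13% ± 0.469 and 4.83% ± 0.286 of enolase transcripts, so ENO1 remained the main form at all doses despite the larger fold change of ENO2. Of the PDK transcripts, PDK2 made 20.6% ± 3.43, 10.9% ± 1.76 and 5.46% ± 2.32, and PDK1 made 55.8% ± 3.87, 59.6% ± 0.714 and 68.3% ± 3.24. For PDK1 the untreated and 20 μM libraries overlapped, and only the 50 μM libraries lay above the untreated ones without overlap. ALDOC made 6.96% ± 0.16, 9.11% ± 0.541 and 9.96% ± 0.673 of aldolase transcripts, without overlap between untreated and treated libraries. The remaining families moved little. SLC16A3 made 92.4% ± 2.37, 95.5% ± 0.249 and 94.4% ± 1.66 of the lactate transporter transcripts, with overlapping untreated and 50 μM libraries, and PFKP made 62.5% ± 0.0871, 65.1% ± 1.23 and 66.4% ± 1.68 of the phosphofructokinase transcripts.

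**Figure D4:**
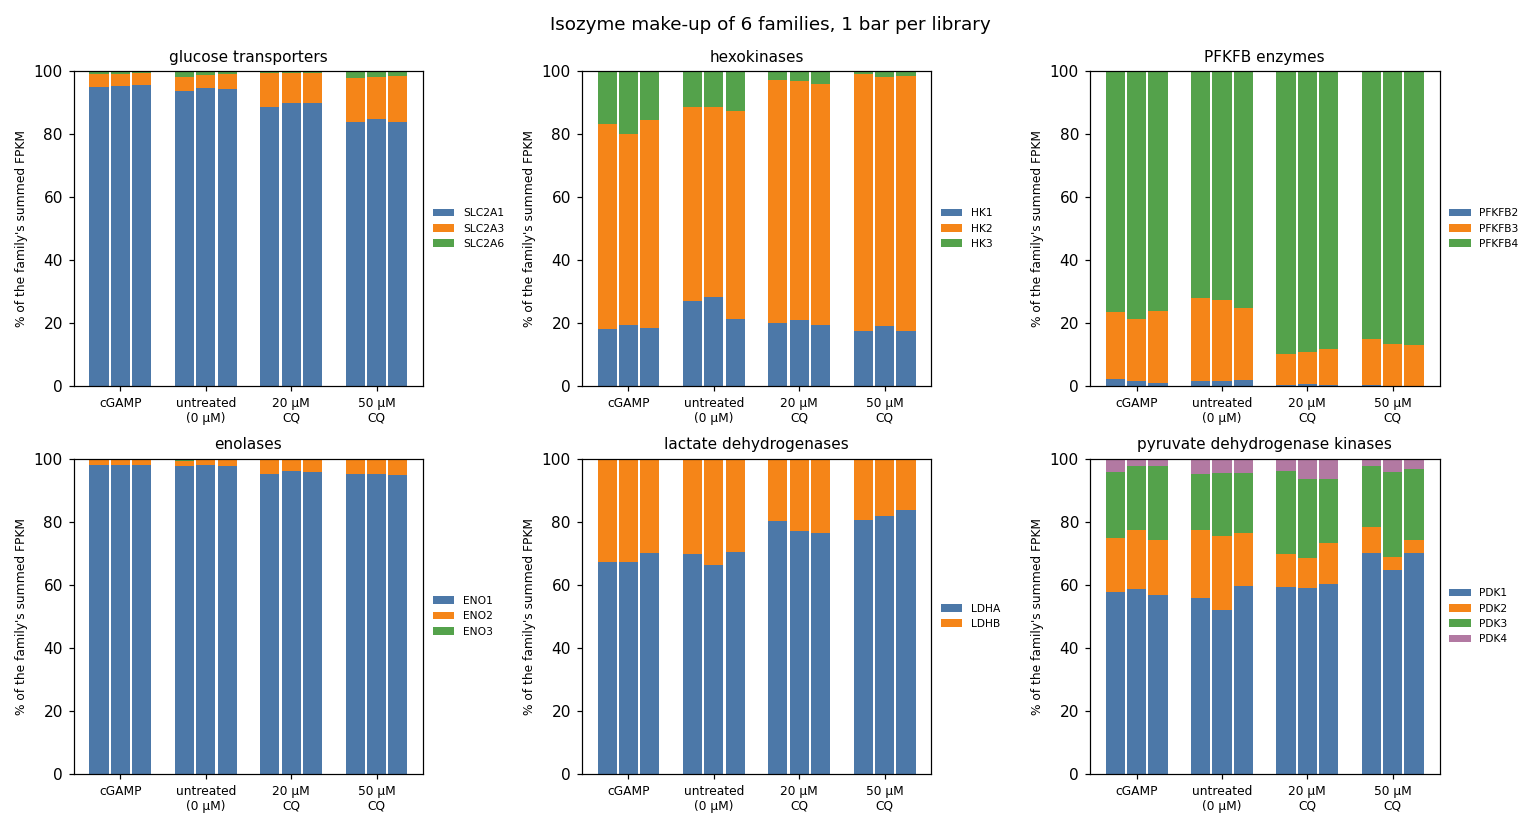
Share of each isozyme in the summed FPKM of its family, as a percentage, with 1 bar per library for 6 families. The LDHA, HK2 and SLC2A3 segments are larger in the 20 and 50 μM bars than in the untreated bars, and the HK3 and PDK2 segments are smaller.

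Levels per length spanned a wide range within the module. GAPDH was the highest member in all 4 groups, at 2230 ± 86.2 FPKM at 0 μM, 4110 ± 405 FPKM at 20 μM and 4910 ± 598 FPKM at 50 μM (SD, n = 3 each). ALDOA came next, at 1860 ± 117, 3020 ± 297 and 3450 ± 214 FPKM. LDHA (1610 ± 163 FPKM) and ENO1 (1490 ± 42 FPKM) followed in untreated cells and lay within their spread of each other. PKM stood at 796 ± 19.4 FPKM, LDHB at 728 ± 31.4 FPKM and PGK1 at 637 ± 9.81 FPKM untreated. At 50 μM LDHB was at 640 ± 94.4 FPKM, place 10 in the order of members against place 6 untreated, below PGK1 (1670 ± 64.4 FPKM), SLC2A1 (853 ± 76.9 FPKM), GPI (841 ± 45.2 FPKM) and, within its spread, PGAM1 (700 ± 46.6 FPKM). PFKFB2 was the lowest member throughout, at 1.29 ± 0.1 FPKM at 0 μM and 0.443 ± 0.181 FPKM at 50 μM.

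**Figure D5:**
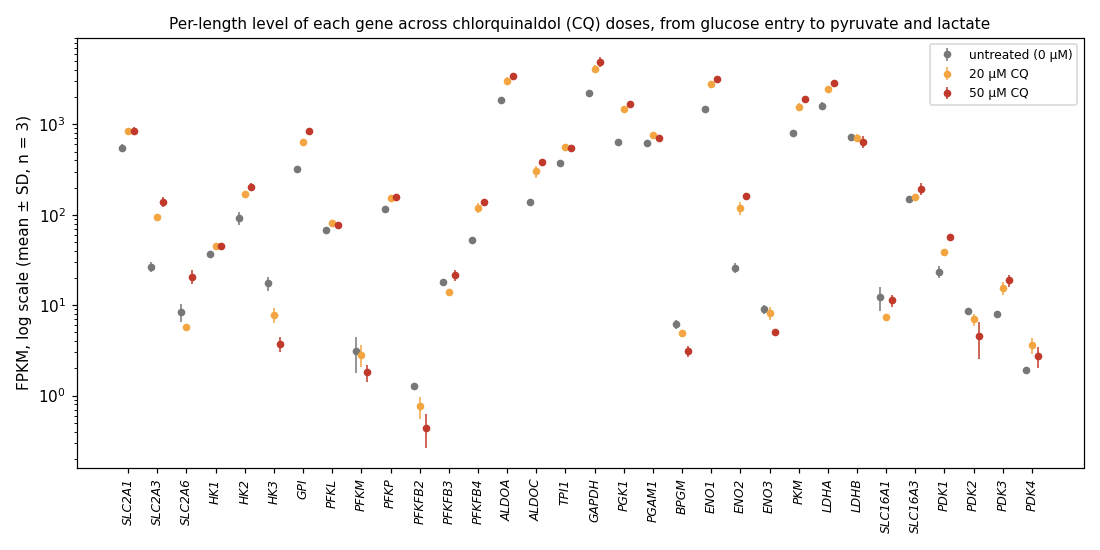
Mean FPKM ± SD (n = 3, log scale) of each of the 32 genes at 0, 20 and 50 μM chlorquinaldol, in pathway order. GAPDH is highest at each dose and PFKFB2 lowest, and the 3 doses of LDHB lie almost on top of each other.

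cGAMP left most of the module near its untreated level. Against untreated cells 1 member rose, where 11.6% of all genes rose, and 2 fell, where 11.8% fell. The median member changed by log2 -0.02, against -0.05 for all genes. HK3 had 56.4, 62.3 and 65.1 CPM with cGAMP, against 38.4, 40.5 and 43.6 CPM in untreated libraries. The groups did not overlap, and HK3 rose by log2 0.58 ± 0.10 SE (adjusted p = 0.000312), opposite in sign to its change with chlorquinaldol measured against the same untreated libraries. SLC2A6 had 10.9, 10.9 and 11.1 CPM with cGAMP, against 17.9, 13.8 and 14.7 CPM untreated, and fell by 0.49 ± 0.13 on the log2 scale (adjusted p = 0.0131). HK1 had 90.4, 104 and 110 CPM with cGAMP, against 118, 126 and 116 CPM untreated, and fell by 0.25 ± 0.08 on the log2 scale (adjusted p = 0.0406). These falls were small, though no cGAMP library reached the untreated range. The number of members that rose was 2 without any one 20 μM replicate, 50 μM replicate 1 or 3 or untreated replicate 3. The number that fell was 1 without any one 20 μM replicate, 50 μM replicate 2 or 3 or untreated replicate 2 or 3, and 0 without cGAMP replicate 2 or untreated replicate 1. The SLC2A6 call was lost without cGAMP replicate 2 or untreated replicate 1 (adjusted p up to 0.09), and the HK1 call in 14 alternatives (adjusted p up to 0.191), among them leaving out any chlorquinaldol or untreated replicate or cGAMP replicate 1 or 2.

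The abundant enzymes did not pass the test with cGAMP. GAPDH had 2150, 2460 and 2480 CPM in cGAMP libraries (log2 0.07 against untreated, 95% interval -0.17 to 0.31, adjusted p = 0.723). LDHA had 2020, 2130 and 2290 CPM (log2 0.01, 95% interval -0.20 to 0.22, adjusted p = 0.956) and LDHB 766, 752 and 736 CPM (log2 0.00, 95% interval -0.24 to 0.24, adjusted p = 0.994). The abundant lower enzymes overlapped their untreated ranges as well, whereas the 2 groups did not overlap for PGAM1, by less than the rounding shown (988, 1110 and 1160 CPM with cGAMP against 880, 945 and 988 CPM untreated, log2 0.21, adjusted p = 0.103) or ENO3 (log2 -0.35, adjusted p = 0.146), neither of which was called. ENO1 had 1980, 2250 and 2360 CPM, PGK1 1130, 1240 and 1300 CPM and PKM 1420, 1570 and 1680 CPM with cGAMP. ALDOA had 1900, 2160 and 2370 CPM, ALDOC 144, 148 and 172 CPM and ENO2 32.4, 38.4 and 40.9 CPM. None of these was called, and their fitted changes ran from log2 -0.22 for ALDOC to 0.08 for PKM. Of the inducible upper genes, SLC2A3 had 80.9, 84.5 and 111 CPM, HK2 515, 517 and 622 CPM and GPI 374, 423 and 453 CPM with cGAMP. The regulators PFKFB4 at 103, 112 and 130 CPM, PDK1 at 115, 113 and 115 CPM, PFKFB2 at 7.19, 5.02 and 4.63 CPM and PDK4 at 5.54, 3.52 and 3.27 CPM were not called either. PFKFB3 came close, at 46.5, 44.7 and 55.0 CPM with cGAMP and log2 -0.33 (adjusted p = 0.0532). Its cGAMP libraries lay below all untreated ones. The same held for PDK4 (log2 -0.56, adjusted p = 0.0699), SLC16A1 (log2 -0.28, adjusted p = 0.0721) and PDK2 (log2 -0.25, adjusted p = 0.0884), none of them called.

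Chlorquinaldol at 50 μM and cGAMP differed when compared directly. Relative to cGAMP, 24 members were higher at 50 μM, where 32% of all genes were, and 4 were lower, where 34.7% were. The median member differed by log2 0.84, against -0.04 for all genes. ENO2 differed most, at 306, 305 and 308 CPM with 50 μM chlorquinaldol against 32.4, 38.4 and 40.9 CPM with cGAMP (log2 3.04, adjusted p = 3.36e-12). The 4 lower members were HK3 (log2 -2.80), PFKFB2 (log2 -1.62), BPGM (log2 -0.79) and PDK2 (log2 -0.47). LDHB was not called here either (log2 -0.04, 95% interval -0.28 to 0.20).

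Neighbouring pathways were counted over lists of genes outside the module. For these counts, 27.1% of all tested genes rose and 28% fell at 20 μM, 32.2% rose and 34.7% fell at 50 μM, and 11.6% rose and 11.8% fell with cGAMP. Of 7 genes of the pentose phosphate pathway, which draws glucose 6-phosphate off to make NADPH and ribose, 4 rose and 3 fell at both chlorquinaldol doses. PGD, which makes NADPH from 6-phosphogluconate, was at 1350 ± 49.5 CPM at 50 μM, against 358 ± 5.55 CPM untreated (SD, n = 3 each), a 3.77-fold rise (adjusted p = 1.97e-11), while RPIA, a ribose phosphate isomerase, fell by 1.26 on the log2 scale (adjusted p = 8.23e-09).  With cGAMP, 1 of the 7 rose and 1 fell, RPE having the smallest p (log2 0.26, adjusted p = 0.0413). With any one library left out 0 of them fell, and without cGAMP replicate 1 or 3 or untreated replicate 1 or 2, 0 rose.

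Of 10 genes of pyruvate oxidation, 2 rose and 4 fell at 20 μM (27.1% and 28% of all genes), and 3 rose and 5 fell at 50 μM (32.2% and 34.7% of all genes). Of the subunits of the pyruvate dehydrogenase complex, PDHA1 (log2 -0.83, adjusted p = 3.41e-08), DLAT (log2 -0.70, adjusted p = 1.62e-05) and PDHB (log2 -0.43, adjusted p = 4.51e-05) fell at 50 μM. DLD also fell there (log2 -0.25, adjusted p = 0.0425), while PDHX rose (log2 0.35, adjusted p = 0.00328), both named after their values were seen. With cGAMP, edgeR and DESeq2 each called 0 of the 10, although 2 were lower at an unadjusted p below 0.05 in edgeR's test, PDPR with the smallest (log2 -0.22, unadjusted p = 0.0306, adjusted p = 0.1). Of 10 glycogen genes tested, against the same shares of all genes, 6 rose and 1 fell at 20 μM, and 5 rose and 1 fell at 50 μM. The branching enzyme GBE1 (log2 1.52, adjusted p = 7.64e-11) and the glycogen synthase GYS1 (log2 1.42, adjusted p = 9.85e-09) rose at 50 μM, and the phosphorylase PYGL fell (log2 -1.21, adjusted p = 1.11e-08). With cGAMP, 1 gene of this list rose, a count that was 3 without any one chlorquinaldol replicate, 2 without untreated replicate 3 and 0 in the limma fits of FPKM.

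Of 5 gluconeogenesis genes tested, 4 fell at 20 μM, against 28% of all genes, and 1 rose and 4 fell at 50 μM, against 32.2% and 34.7% of all genes. At 20 μM edgeR and DESeq2 each called 0 of them higher, 1 being higher at an unadjusted p below 0.05 in edgeR's test. The glucose 6-phosphate transporter SLC37A4 (log2 -1.75, adjusted p = 2.7e-09) and fructose bisphosphatase FBP1 (log2 -1.67, adjusted p = 3.5e-08), which runs opposite to phosphofructokinase, fell at 50 μM. Pyruvate carboxylase PC rose there (log2 1.31, adjusted p = 1.01e-07) and was the 1 gene of this list to fall with cGAMP (log2 -0.45, adjusted p = 0.0334). That call was lost in DESeq2 and on leaving out any library other than 20 μM replicate 1 or cGAMP replicate 3. Of 14 tested related genes outside the module, most of them further SLC2A and SLC16A carriers, 5 rose and 3 fell at 20 μM (27.1% and 28% of all genes), and 4 rose and 5 fell at 50 μM (32.2% and 34.7% of all genes). SLC2A9, a urate and hexose carrier (log2 -1.79, adjusted p = 7.64e-11), and LDHD, a D-lactate dehydrogenase (log2 -2.02, adjusted p = 1.09e-07), fell at 50 μM, and SLC2A5, a fructose carrier, rose (log2 1.04, adjusted p = 2.09e-07). With cGAMP, 1 of these rose and 2 fell, with the smallest p for SLC2A13 (log2 0.41, adjusted p = 0.006). The number that fell was 0 without cGAMP replicate 2 or 3 or untreated replicate 1, and 1 without 20 μM replicate 1 or 2, 50 μM replicate 2 or 3, cGAMP replicate 1 or untreated replicate 2. Of 9 regulators of glucose use, against the same shares of all genes, 1 rose and 3 fell at 20 μM, and 2 rose and 4 fell at 50 μM. The arrestin ARRDC4 (log2 0.87, adjusted p = 2.63e-05) rose, and MYC (log2 -0.65, adjusted p = 4.05e-05) and the glucose-sensing factor MLXIP (log2 -0.36, adjusted p = 0.000533) fell. With cGAMP, 1 of the 9 rose and 4 fell, among them MLXIP (log2 -0.42, adjusted p = 0.000665).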

How the data were processed

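Poly(A)-enriched RNA of 12 THP-1 libraries was read on the DNBSEQ platform of BGI, as the labels' protocols state. The authors deposited estimated counts per gene and FPKM per gene (scaled for transcript length and library size), made with RSEM on GRCh38 per the submitters' processing notes, which also name DESeq2 1.26.0. Of the non-zero estimated counts 42.307% were not whole (tolerance 1e-09), so they were rounded. The 326 entries without an Ensembl ID (0.182% to 0.29% of counts) stayed out of the fits.

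Genes passing edgeR's filterByExpr (minimum count 10) were fitted in 1 model of all 4 groups with TMM scaling and tested with edgeR 4.0.16's quasi-likelihood test in R 4.3.3. Benjamini-Hochberg adjustment ran over 16628 genes, with calls below 0.05. SE is the log2 change divided by the root of F, and 95% intervals use the test's 8 residual and 8.99 prior degrees of freedom. Positions come from GENCODE release 29, symbols from a separate list of gene names and promoters from RefSeq. The fit was tested on simulated data. There were 0 unused per-sample columns. Replicate pairs of each group differed by more than counting noise.

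Members described per library had a log2 change of at least 1 with a call in any of 5 comparisons, or were GAPDH, LDHA, LDHB, PKM or HK1. Some further members are given per library for their dose pattern, chosen after their values were seen. From each neighbouring list the 3 smallest p at 50 μM and the 1 smallest with cGAMP are named, except some genes that are not reported here. The members and lists were chosen with earlier results of these data known. Alternatives were RLE and upper-quartile scaling, DESeq2 1.42.0, other filters, a replicate block, a fit of each comparison's groups alone, limma 3.58.1 on log2(FPKM + 1) or log2(FPKM + 0.1), and leaving out each library.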

Additional observations from a re-analysis of the deposited data

How the results depend on the processing

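Of 108 called changes of members over the 5 comparisons, 81 were called in all 22 alternatives, 27 were lost in at least 1, and 0 changed sign. The number that fell at 20 μM, 5, was 3 in limma on log2(FPKM + 1) of all genes and 3 to 6 with 1 library left out. The numbers for the step between the doses, 17 higher and 5 lower, were 10 higher in limma on log2(FPKM + 1), 9 higher on log2(FPKM + 0.1), and 6 higher and 3 lower on log2(FPKM + 1) of all genes. With 1 library left out they were 15 to 19 higher. PFKFB2 at 20 μM and PFKL and PGAM1 at 50 μM also lost their calls in limma on log2(FPKM + 1) of all genes (adjusted p = 0.0998, 0.0826 and 0.0798). For cGAMP, 1 higher and 2 lower became 2 higher in DESeq2, 3 higher and 4 lower with only the groups compared, 1 lower with RLE scaling, 5 lower with upper-quartile scaling and 1 lower in limma on all genes. With 1 library left out they were 1 to 2 higher and 0 to 3 lower. The share of PDK3 among the PDK transcripts, higher than untreated by FPKM, was lower by estimated counts, by -0.382 percentage points at 20 μM, -6.36 at 50 μM and -1.56 with cGAMP. The cause was not tested.

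Over all genes, the number higher over the dose step, 3168, ranged from 1645 to 3449, and with cGAMP 1921 higher ranged from 1085 to 2820 and 1954 lower from 953 to 2605 (858 to 1555 with 1 library left out, the lowest without 50 μM replicate 2, cGAMP replicate 1 or 2 or untreated replicate 1 or 2). On the FPKM scale the median of all genes moved to -0.107 (pseudocount 1) and -0.16 (pseudocount 0.1) for 50 μM against untreated.

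Over all tested genes, same-numbered replicates of different groups did not deviate together (18 correlations from -0.113 to 0.067). Within the module, replicate 3 was highest for 22 of 32 members in both untreated and cGAMP libraries. It was lowest for 20 of 32 at 20 μM and 21 of 32 at 50 μM. Correlations over all genes cannot exclude shared handling of same-numbered samples, so whether the numbers pair the samples stays unknown. With a replicate block, 21 members rose and 6 fell at 20 μM, 24 rose and 5 fell at 50 μM, 16 rose and 4 fell over the dose step, 1 rose and 2 fell with cGAMP (the HK1 fall was lost and a PFKFB3 fall gained), and 24 were higher and 4 lower at 50 μM than with cGAMP. Depth limits the members with the fewest counts, such as PFKM, ENO3 and PFKFB2.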
